A study of Mus musculus with 4 samples.

Results

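The genes described here carry the LIF, JAK and STAT3 signal in mouse embryonic stem cells (mESCs). They are Lif, Lifr, Il6st, Jak1, Stat3, Socs3, Pim1 and Pim3, chosen by name, and all 8 were found among the 37620 genes of the raw count table. The RNA-seq data compare MUT_CTCF with WT_CTCF mESCs, with 2 libraries per line. Both lines descend from mESCs whose endogenous CTCF carries an auxin-inducible degron. Auxin removed that tagged protein in both lines, and a vector supplied CTCF in its place, which was wild type in WT_CTCF mESCs and mutated at T668, a site that carries O-GlcNAc, in MUT_CTCF mESCs. Each line was grown from a picked clone selected with hygromycin, so the mutation and the clone cannot be told apart. All cells were kept on gelatin in medium with 15% serum and 1000 U/mL recombinant LIF, so the pathway was stimulated from outside in every library.

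LIF is a cytokine that keeps mESCs undifferentiated in culture. It binds a receptor made of LIFR and gp130, the product of Il6st, and the kinase JAK1 on this receptor phosphorylates STAT3, which then enters the nucleus and switches on target genes. Socs3 is a direct target whose protein blocks the receptor and JAK1, a negative feedback loop, and Pim1 and Pim3 are targets that encode kinases promoting survival and self-renewal. The comparison asks whether the RNA of any of these steps differs when CTCF cannot be O-GlcNAcylated at T668.

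In this comparison Socs3 fell by 13.3% in MUT_CTCF mESCs, and none of the other 7 genes passed the test. Ligand, receptor, kinase, STAT3 and PIM transcripts each had a mean within 6.39% of that in WT_CTCF mESCs. Counts summed to between 40524694 and 40977464 per library, and 16264 genes had enough reads to be tested, among them all 8 pathway genes. Differences are log2 fold changes of MUT_CTCF over WT_CTCF mESCs with their standard error (SE), fitted by quasi-likelihood in edgeR. The p-values were adjusted over the tested genes, and a gene was called at an adjusted p under 0.05. By this rule 3.17% of all tested genes were called, 1.56% higher and 1.61% lower, against 0 of the 8 higher and 1 lower. At an unadjusted p under 0.05 and a fold above 2, 1.3% of all tested genes passed and 0 of the 8. Counts are given normalized, that is, brought to the size of an average library. Ctcf itself had a log2 fold change of 0.044 (SE 0.0284, adjusted p = 0.499), which does not separate endogenous from vector transcripts.

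The cells carried the RNA of mESCs. All 8 mESC markers were at 135.4 or more on the RPKM scale (counted reads scaled by the exon length of the gene and by the total of the library), while the highest of 8 feeder fibroblast markers, Thy1, was at 10.6 RPKM. The summed mESC markers were at 3751 and 3653 RPKM in WT_CTCF and at 3644 and 3618 in MUT_CTCF mESCs. Summed feeder markers, of which none was at 0 in all libraries, were at 14.3 and 15.0 RPKM and at 15.5 and 17.2 RPKM. Summed markers of extraembryonic endoderm, again with none at 0 in all libraries, were at 3.01 and 3.27 RPKM and at 3.71 and 4.35 RPKM. Of the 5 tested endoderm markers 4 were higher, 1 was lower and 0 were called. Gata6 came nearest to a call (log2 fold change 0.95, adjusted p = 0.0733), and Dab2 was the lower one (-0.21, adjusted p = 0.644). The lower mESC sum in both MUT_CTCF libraries came from Dppa5a, without which the sums were 2207 and 2196 RPKM in WT_CTCF and 2228 and 2208 in MUT_CTCF mESCs. Of the 8 mESC markers 4 were higher and 4 lower, with Sox2 called higher (log2 fold change 0.095, adjusted p = 0.0358) and Dppa5a called lower (-0.099, adjusted p = 0.0157). The higher feeder sum came from Thy1, without which the sums overlapped, at 5.94 and 5.75 RPKM and at 5.60 and 6.67 RPKM. The part of these markers in the results below was not tested. Summed trophoblast markers overlapped, from 29.8 to 31.1 RPKM, but Tfap2c alone was at 23.8 to 26.1 RPKM, so the sum mostly reads that gene. Of the 6 markers 2 were higher and 4 lower. Cdx2 was called lower (log2 fold change -0.97, adjusted p = 0.000227), and Ascl2 was higher without a call (0.82, adjusted p = 0.107). In such bulk RNA, fewer cells that make a transcript and less of it per cell cannot be told apart.

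The levels of the 8 genes differed widely, with the STAT3 targets at the top and the ligand and its receptor chain at the bottom. On the RPKM scale, averaged over the 4 libraries, Pim1 was highest at 89.0, followed by Pim3 at 65.5 and Socs3 at 59.5. Stat3 followed at 24.0 RPKM, Il6st at 15.6, Jak1 at 7.82, Lif at 3.81 and Lifr at 2.85. No neighbours in this order overlapped between any of their libraries. The exon length covers all annotated exons of a gene, used or not, so the order depends on that choice of length. The feedback and target genes lay above at least 92.8% of all tested genes, whereas Lif and Lifr lay below the median of all tested genes, 3.92 RPKM.

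**Figure D1:**
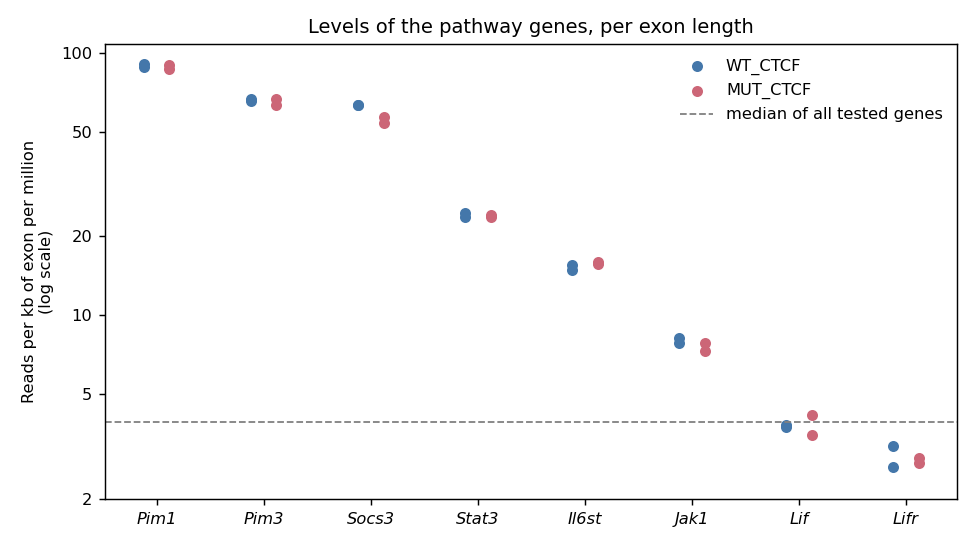
RPKM (counted reads scaled by exon length and library total, log axis) of each gene in each library, ordered by mean level, with WT_CTCF in blue and MUT_CTCF in red. The 3 STAT3 targets sit at 54.1 RPKM or above, and Lif and Lifr sit around or below the dashed median of all tested genes at 3.92 RPKM.

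Lif (chromosome 11 of mm9, 4157560 to 4172517, plus strand) encodes the ligand. It had 683.1 and 666.6 normalized counts in WT_CTCF and 737.6 and 619 in MUT_CTCF mESCs. The MUT_CTCF libraries lay on either side of the WT_CTCF libraries, so the mESCs made some Lif RNA of their own without a difference between the lines beyond the spread of replicates. The log2 fold change was 0.0076 (SE 0.103, adjusted p = 0.982). Its 95% confidence interval ran from -0.20 to 0.21 and was the widest among the 8 genes.

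Lifr (chromosome 15, 7079559 to 7147489, plus strand) encodes the receptor chain that binds LIF. It had 1119 and 1341 normalized counts in WT_CTCF and 1145 and 1200 in MUT_CTCF mESCs. Both MUT_CTCF libraries fell between the WT_CTCF libraries. The log2 fold change was -0.069 (95% confidence interval -0.23 to 0.094, adjusted p = 0.773), and it became 0.067 without WT_CTCF replicate 2 and -0.19 without WT_CTCF replicate 1.

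Il6st (chromosome 13, 113265216 to 113297068, plus strand) encodes gp130, the signalling chain shared by the receptors of this cytokine family. It had 3318 and 3187 normalized counts in WT_CTCF and 3368 and 3339.9 in MUT_CTCF mESCs. Both MUT_CTCF libraries were higher, by less than the spread between the WT_CTCF libraries. The log2 fold change was 0.044 (95% confidence interval -0.057 to 0.15, adjusted p = 0.764).

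Jak1 (chromosome 4, 100824972 to 100937887, minus strand) encodes the kinase bound to the receptor. It had 2327 and 2436 normalized counts in WT_CTCF and 2309 and 2149 in MUT_CTCF mESCs, so the lines did not overlap, although the nearest libraries were close. With a log2 fold change of -0.095 (95% confidence interval -0.21 to 0.024, adjusted p = 0.482) it did not pass. Lines that do not overlap in either direction are common here, at 44.7% of all tested genes (22.3% with MUT_CTCF higher and 22.3% with MUT_CTCF lower), against 3 of the 8 pathway genes, Il6st higher and Jak1 and Socs3 lower. Jak1 shares 4 of its 7227 exon bases with Raver2.

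Stat3 (chromosome 11, 100746412 to 100800854, minus strand) encodes the transcription factor on which the signal converges. It had 9583 and 9219 normalized counts in WT_CTCF and 9314 and 9220.0 in MUT_CTCF mESCs. All 4 libraries lay close together, and both MUT_CTCF libraries fell within the WT_CTCF range. The log2 fold change was -0.021 (SE 0.0346, adjusted p = 0.855), with a 95% confidence interval from -0.090 to 0.049. These RNA counts hold no measure of phosphorylated STAT3. Stat3 shares 72 of its 9527 exon bases with Stat5a on the other strand, and whether counting was stranded is not given in the sources used here.

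**Figure D2:**
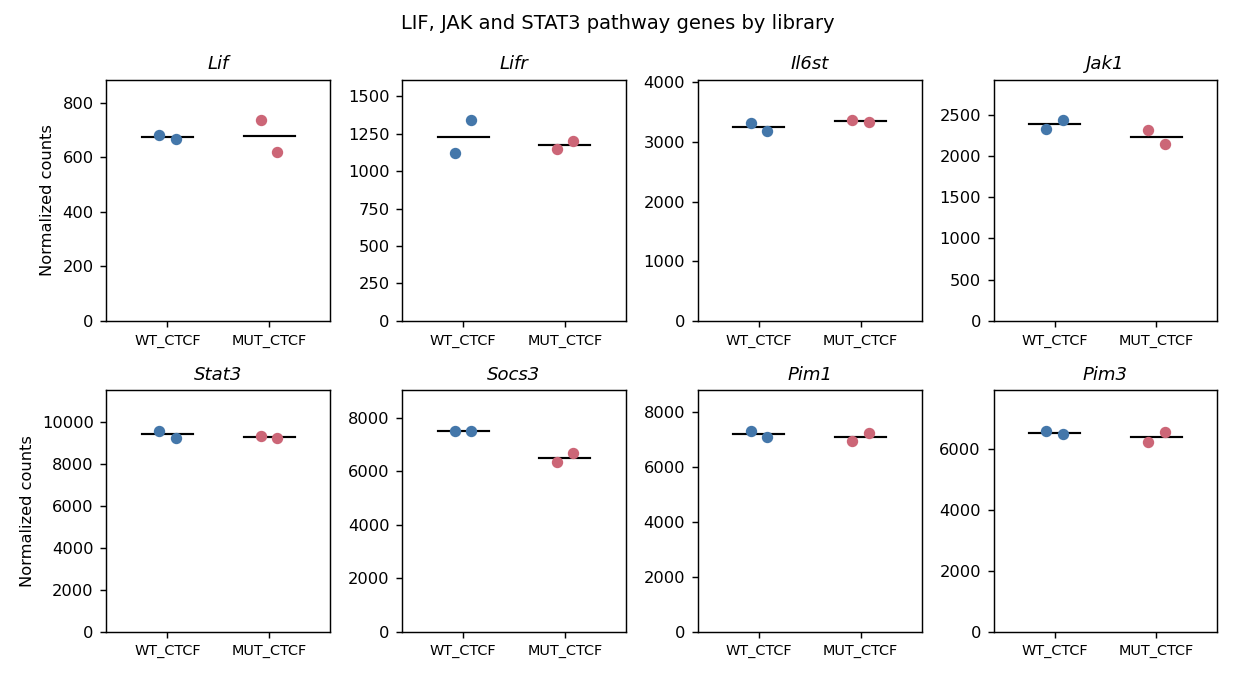
Normalized counts of the 8 genes, with a point per library and a bar for the mean of the 2 libraries of a line, each axis starting at 0. Socs3 drops from 7516 to 6516 on average with a clear gap between the lines, and the means of the other genes stay nearly level.

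Socs3 (chromosome 11, 117827393 to 117831361, minus strand) encodes the feedback inhibitor of the receptor and of JAK1. It had 7525 and 7507 normalized counts in WT_CTCF and 6344 and 6689 in MUT_CTCF mESCs. Both MUT_CTCF libraries lay below both WT_CTCF libraries, and the gap between the lines was larger than the spread within either. The means were 7516 ± 13.0 and 6516 ± 244 (SD, n = 2), a log2 fold change of -0.21 (SE 0.0382, 95% confidence interval -0.28 to -0.13, adjusted p = 0.000315). Among the 262 genes called lower, 19 had a smaller p and 95 fell further, so the fall of Socs3 was moderate in size and measured on many reads. No exon base of Socs3 is shared with another gene in the annotation. Of 13 other ways of processing the data, edgeR's exact test and DESeq2, each with no filter, were added after the data were seen. The call held in 10 of the 13, these among them. It was lost with no filter on low counts in the same test (adjusted p = 0.138), without MUT_CTCF replicate 1 (log2 fold change -0.17, adjusted p = 0.300) and without MUT_CTCF replicate 2 (-0.25, adjusted p = 0.181).

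**Figure D3:**
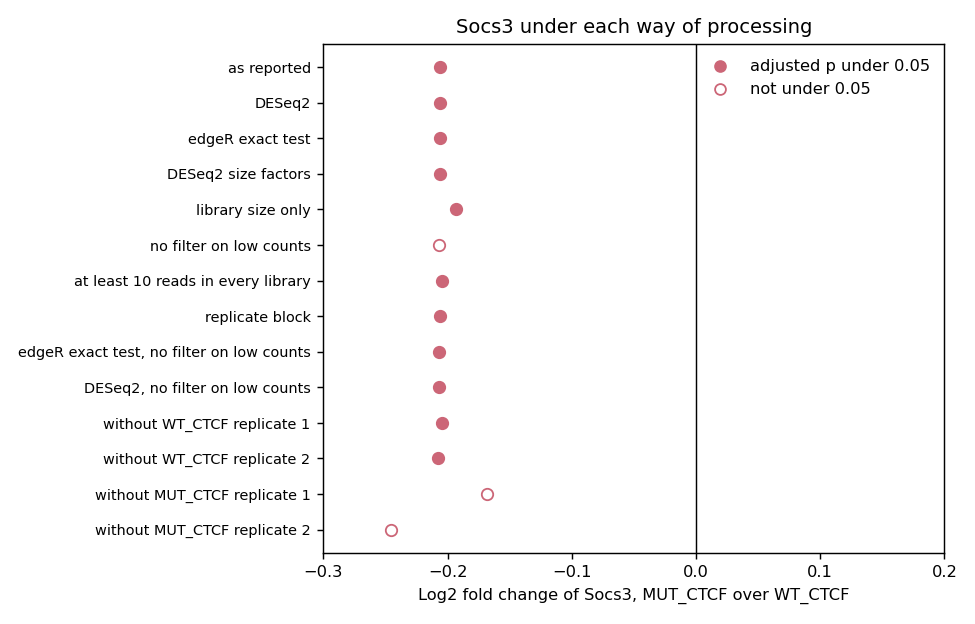
Log2 fold change of Socs3 (MUT_CTCF over WT_CTCF) under each way of processing, with filled points for an adjusted p under 0.05. Every value lies between -0.25 and -0.17, and 3 alternatives are open circles.

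The promoter of Socs3 is shown because it was the only promoter of the 8 genes that held the core letters bound by STAT proteins. In the RefSeq promoters (GRCm38.p6, 250 bases before to 50 after the start of each gene), all 8 genes were matched, with 10 promoters in all. TTCNNNGAA, which reads the same on both strands, occurred in 1 of these 10 and in 8.30% of all 32851 promoters. The tighter form TTCCNGGAA, which is contained in the first, occurred in none of the 10 and in 1.15% of all promoters. In Socs3 the match spans positions -154 to -146 from the start site, at chr11:117969512-117969520 on the minus strand. The 150 bases from -200 to -51 (chr11:117969417-117969566, 5′ to 3′ on the minus strand) are given with the match in capitals.
Socs3: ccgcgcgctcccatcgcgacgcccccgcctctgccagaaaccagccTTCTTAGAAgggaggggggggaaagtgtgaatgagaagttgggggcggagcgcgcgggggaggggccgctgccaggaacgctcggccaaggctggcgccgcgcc
The match is a description of the letters, and no match in the other promoters says only that these letters are not within that window.

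Pim1 (chromosome 17, 29627757 to 29632390, plus strand) and Pim3 (chromosome 15, 88692616 to 88696150, plus strand) encode serine/threonine kinases and are targets of STAT3 like Socs3. Pim1 had 7334 and 7102 normalized counts in WT_CTCF and 6962 and 7243 in MUT_CTCF mESCs. Pim3 had 6603 and 6478 in WT_CTCF and 6234 and 6570.4 in MUT_CTCF mESCs. In both genes the lines overlapped, with MUT_CTCF replicate 1 the lowest of the 4 libraries. The log2 fold change was -0.023 for Pim1 (95% confidence interval -0.099 to 0.052, adjusted p = 0.849) and -0.031 for Pim3 (95% confidence interval -0.11 to 0.048, adjusted p = 0.797). Neither interval reaches the fitted value of Socs3, -0.206, whereas those of Lifr (-0.233 to 0.094) and Jak1 (-0.215 to 0.024) include it. Differences in fold change between genes were not tested. Pim1 shares 468 of its 1972 exon bases with Gm16912 on the other strand, which itself had at most 6 counts per library. As the strand setting is not given, reads in the shared bases cannot be assigned. The low count of Gm16912 therefore does not show that the level of Pim1 is free of this overlap. Of the PIM family RNA, on the RPKM scale, Pim1 made up 54.5% to 55.3%, Pim3 40.1% to 40.6% and Pim2 4.07% to 5.004% across the 4 libraries, with a similar make-up in all of them.

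**Figure D4:**
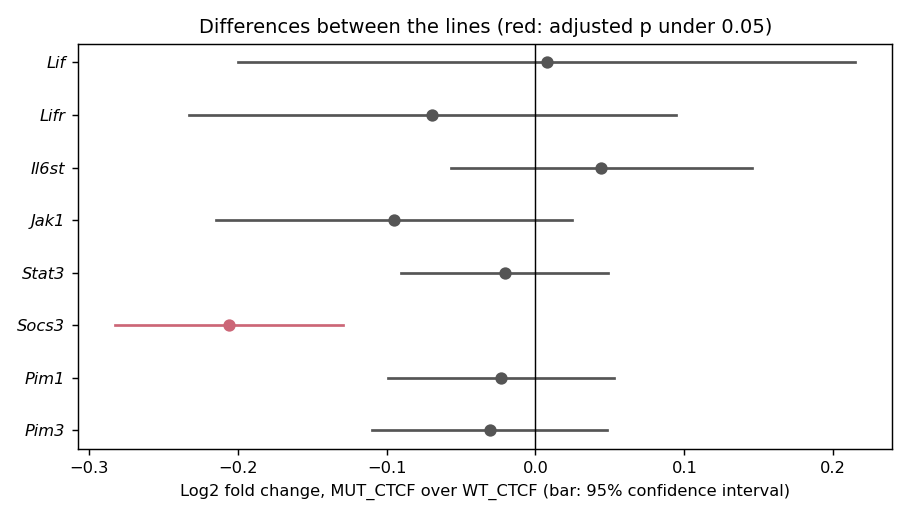
Log2 fold change (MUT_CTCF over WT_CTCF) of each gene with its 95% confidence interval. The interval of Socs3, from -0.28 to -0.13, is the only one of the 8 that leaves out 0.

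Ratios within a library do not depend on how libraries were scaled. The ratio of Socs3 to Stat3, both in RPKM, was 2.59 and 2.68 in WT_CTCF and 2.25 and 2.39 in MUT_CTCF mESCs. Both MUT_CTCF values were lower, and the mean ratio fell by 12.1%. Il6st to Lifr was at 5.89 and 4.71 in WT_CTCF and at 5.83 and 5.52 in MUT_CTCF mESCs, which overlapped. Pim1 to Pim3 was steady, at 1.36 and 1.35 in WT_CTCF and 1.37 and 1.35 in MUT_CTCF mESCs. Lif to Lifr was at 1.45 and 1.18 in WT_CTCF and at 1.53 and 1.23 in MUT_CTCF mESCs, which overlapped as well. In two-sided exact permutation tests of these 4 ratios, Socs3 to Stat3 had p = 0.333 (adjusted p = 0.889), the smallest p that 2 libraries a line allow in this test, so the design could not reach 0.05.

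The rest of the pathway was read from 7 gene lists. Of 63 genes, 58 were tested. Of these 58, 1 was called higher and 1 lower, near the 1.56% and 1.61% of all tested genes. An unadjusted p under 0.05 was found for 14 of the 58, a larger share than the 15.3% of all tested genes. Whether the lists differ as a set was not tested. The median log2 fold change over the 58 was 0.021, beside 0.0034 over all tested genes and -0.027 over the 8 pathway genes above. None of 5 tested IL6 family ligands, 4 receptors of this family, 3 further JAK kinases, 14 inhibitors and 11 adaptors of the MAPK and PI3K branches was called by edgeR's quasi-likelihood test, and DESeq2 called 0 of the 30 genes to which it gave an adjusted p. It gave none to the other 28 tested genes, Myc, Osm, Cntfr, Jak2 and Cish among them.

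Of 15 tested STAT3 targets outside the 8 genes, Myc fell. Myc, which encodes a transcription factor driving growth, had 780.2 and 841 normalized counts in WT_CTCF and 651.3 and 571.7 in MUT_CTCF mESCs. Both MUT_CTCF libraries were lower, with a log2 fold change of -0.41 (SE 0.101, adjusted p = 0.0115). It did not pass with no filter on low counts (adjusted p = 0.249), nor without WT_CTCF replicate 2 (0.144), MUT_CTCF replicate 1 (0.311) or MUT_CTCF replicate 2 (0.428). The other 14 targets were not called, with 10 of the 15 targets higher and 5 lower. They include the naive pluripotency factors Klf4 (log2 fold change 0.098, adjusted p = 0.0851), Tfcp2l1 (0.015, adjusted p = 0.840) and Klf5 (0.0054, adjusted p = 0.977), all 3 given here after their values were seen. Other uncalled targets were lower, among them Junb (-0.24, adjusted p = 0.0680) and Gbx2 (-0.10, adjusted p = 0.694), also named after their values were seen. Junb had the smallest adjusted p of the uncalled targets. The list's median was 0.015.

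Of the 6 other STAT genes, Stat5b rose. It had 1048 and 1049.5 normalized counts in WT_CTCF and 1286 and 1259 in MUT_CTCF mESCs, with a clear gap between the lines. Its log2 fold change was 0.28 (SE 0.0789, adjusted p = 0.0332), but it passed in only 6 of 13 other ways of processing and not in DESeq2 (adjusted p = 0.0635) or when any single library was left out (0.155 to 0.406). Stat5b, Stat5a and Stat3 lie side by side on chromosome 11, with Stat5b 34.4 kb from Stat3. Stat5a, between them, had a log2 fold change of -0.015 (adjusted p = 0.975). In RPKM, Stat3 made up 42.3% to 45.9% of the RNA of the 7 STAT genes.

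**Figure D5:**
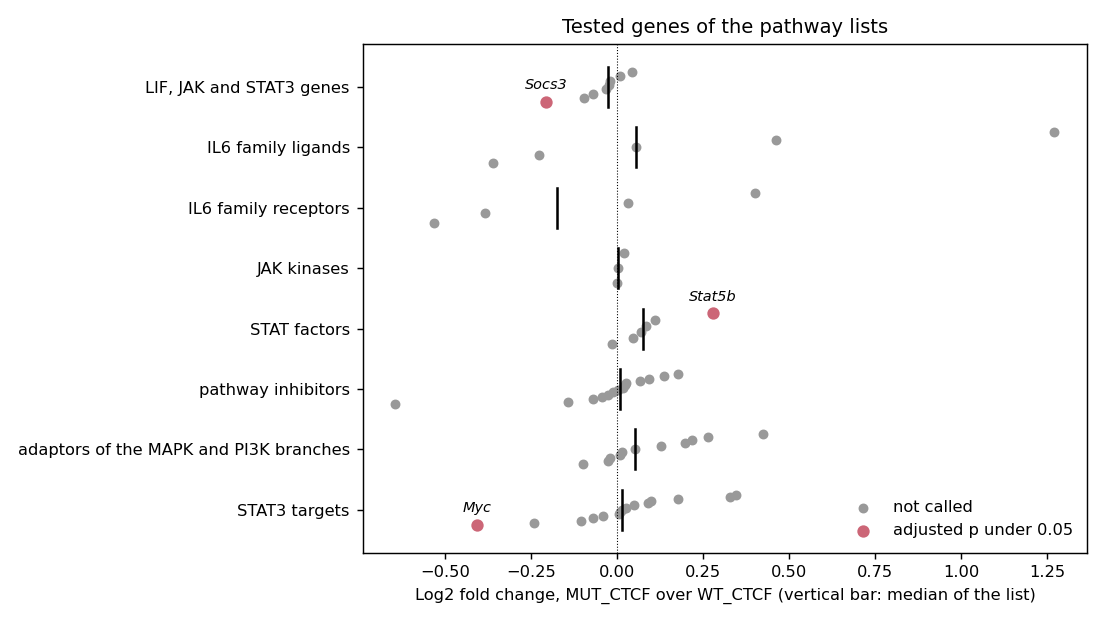
Log2 fold change (MUT_CTCF over WT_CTCF) of every tested gene of the 8 pathway genes and the 7 lists, with a vertical bar at each median and red points for an adjusted p under 0.05. The called genes are Socs3, Stat5b and Myc, and the medians lie between -0.18 and 0.077.

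In the lists without a call, the gene with the smallest p is given. Osm, the gene of oncostatin M, a related ligand, had a log2 fold change of -0.36 (adjusted p = 0.0684), and Cntfr, a receptor chain for ciliary neurotrophic factor, one of 0.40 (adjusted p = 0.167). Cish, an inhibitor induced by STAT5, had -0.64 (adjusted p = 0.201), with -1.03 without MUT_CTCF replicate 1 and -0.34 without MUT_CTCF replicate 2. Akt1, a kinase of the PI3K branch, had 0.27 (adjusted p = 0.0824), and Jak2 had 0.019 (adjusted p = 0.979), which turned to -0.14 when WT_CTCF replicate 2 was left out and to -0.19 when MUT_CTCF replicate 1 was. None of these 5 passed.

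Genes near Socs3, Stat3 and Lif on the chromosome were looked at after the values had been seen. Within 200 kb on either side of Socs3, 12 genes were tested. By edgeR's quasi-likelihood test 0 were called and 0 had an unadjusted p under 0.05, beside 3.17% and 15.3% of all tested genes. DESeq2 called 0 of the 5 to which it gave an adjusted p. The log2 fold changes of the 12 genes had a median of 0.0018, with 7 higher and 5 lower. Within 200 kb of Stat3, 18 genes were tested, and Stat5b was the 1 called by edgeR. DESeq2 called 0 of the 11 to which it gave an adjusted p. Within 200 kb of Lif, 11 genes were tested, with 0 called and 3 at an unadjusted p under 0.05. Whether these counts differ from the shares of all tested genes was not tested.

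The genes most like Socs3 over the 4 libraries, by the Euclidean distance of centred log2 normalized counts among 11587 genes with a mean of at least 100, were Fam86 (distance 0.0065), Utf1 (0.0105) and Tgs1 (0.0115). Those most like Stat3 were Nop56 (0.0012), Gle1 (0.0035) and Rpl27 (0.0040). With 4 libraries such neighbours are plentiful: 429 genes lay within a distance of 0.1 of Socs3 and 3471 within 0.1 of Stat3.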

How the data were processed

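RNA-seq counts of 4 libraries, 2 of WT_CTCF and 2 of MUT_CTCF mESCs, were used. The authors trimmed reads with Trim Galore 0.4.4, used STAR for alignment to mm9, and deposited counts of uniquely mapped reads per gene from HTSeq 0.9.1, without normalization. A deposited table of the authors' own edgeR comparison (fold change, average expression, p-value and false discovery rate) was not used. GENCODE M1 (NCBIM37, mm9) gave symbols for 37205 of 37620 identifiers, places and exon lengths, and RefSeq synonyms gave older symbols.

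Genes were kept by filterByExpr (minimum count 10), scaled by TMM and tested with glmQLFit and glmQLFTest of edgeR 4.0.16 (R 4.3.3), with Benjamini-Hochberg adjustment. The standard error is the log2 fold change divided by the root of F. In simulated data with changes set in advance, the fit recovered 41.3% of changes at a fold of 1.3 and 70.9% at a fold of 2. Of its calls, 2.41% and 3.47% were false. Smaller changes, such as those of the 8 genes, were not simulated. The members and lists were chosen with earlier results of these data known. Named were the 8 genes, list genes with an adjusted p under 0.05 or else the smallest p, and the 3 genes most like Socs3 and Stat3. Results were recomputed with DESeq2 1.42.0, with the exact test of edgeR, under other scalings and count filters, with the replicate number as a block, and leaving out single libraries. The authors describe 2 biological replicates per line. Protein sequences were not used here.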

Additional observations from a re-analysis of the deposited data

How the results depend on the processing

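The number of the 8 pathway genes called was 1 as reported, 0 with no filter on low counts and 0 when a fold above 2 was required at an unadjusted p under 0.05, and ran from 0 to 1 with each library left out. Of the 63 other pathway genes, 2 were called as reported, 0 in DESeq2 with or without the filter, 0 with no filter, 1 (Clcf1, named after its value was seen) at the fold criterion, 5 with a replicate block, and 0 to 1 with each library left out. Over all genes the calls were 515, 313 in DESeq2, 294 in DESeq2 with no filter, 29 with no filter, and 6 to 244 with each library left out. The cause of the drop with no filter was not tested, and there edgeR's exact test and DESeq2, both added after the data were seen, still called Socs3. DESeq2 gave no adjusted p for Lif, nor for 28 of the 58 tested list genes (30 with no filter), so its counts of 0 cover the rest.

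With a library left out, the lone library of a line is assumed to vary like the other pair. Values that crossed 0 ran from -0.13 to 0.13 for Lif, -0.19 to 0.067 for Lifr, -0.048 to 0.0076 for Stat3, -0.053 to 0.0046 for Pim1, -0.071 to 0.0062 for Pim3 and -0.19 to 0.20 for Jak2. Pim1 was 0.00015 without WT_CTCF replicate 1. Socs3 ran from -0.25 to -0.17. Same-numbered libraries did not deviate together across tested genes (r = -0.020), nor across those with a mean of at least 100 (r = 0.019). A correlation over so many genes cannot show whether a part of them is paired by number, so pairing was not settled. With the replicate block all genes called rose to 698, Socs3 had a log2 fold change of -0.21 (adjusted p = 7.42e-06, edgeR) and Osm passed (adjusted p = 0.0429). Lif and Lifr, at the fewest reads, were measured least precisely.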

Other observations

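The JAK family RNA was not led by Jak1. On the RPKM scale Jak3 made up 40.04% to 42.5% of the 4 JAK genes across the libraries, Tyk2 32.0% to 34.6%, Jak1 21.4% to 24.0% and Jak2 2.09% to 2.75%. In raw counts per library Jak1 (2139 to 2430) and Tyk2 (2076 to 2211) overlapped. Their order in RPKM rests on the exon lengths used, 7227 and 4611 bases. Jak3, best known as the kinase of lymphocyte cytokine receptors, had 3009 to 3201 counts per library and a log2 fold change of 0.00087 (adjusted p = 0.998, edgeR), and 692 of its 5359 exon bases are shared with Gm9933 and Insl3.

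Osm lies 16.5 kb from Lif on chromosome 11 and had 589.9 and 599.4 normalized counts in WT_CTCF against 453.1 and 474.3 in MUT_CTCF mESCs, while its receptor gene Osmr had 0 counts in 3 of 4 libraries and 5 counts in MUT_CTCF replicate 1. A count of 0 allows up to 3 counts by sampling, which covers counting error only.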
